A study of Mus musculus with 4 samples.

Results

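Hedgehog signalling genes of mouse embryonic stem (ES) cells were followed in 4 libraries of chromatin immunoprecipitation with sequencing (ChIP-seq). The genes are 9 in number, taken by name from the GENCODE M1 annotation of mouse genome build mm9: the ligands Shh, Ihh and Dhh, the inhibitor Hhip, the receptor Ptch1, the transducer Smo and the transcription factors Gli1, Gli2 and Gli3. They are 9 of 22359 protein-coding genes with an annotated transcription start site (TSS). The rule that takes them uses gene names and no measured value, and each was found once in the annotation.

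Hedgehog ligands are secreted proteins that bind Ptch1 on the receiving cell. Free Ptch1 keeps Smo inactive, and ligand binding lifts this block, so that Gli proteins switch on target genes, among them Ptch1, Hhip and Gli1 themselves. Gli2 acts mainly as an activator and Gli3 mainly as a repressor, and the pathway patterns limb, neural tube and gut later in development. Acetylation of histone H3 at lysine 9 (H3K9ac) and lysine 14 (H3K14ac) is a mark of open promoters and enhancers. Promoters of developmental genes in ES cells are often bivalent, carrying both activating and repressive methylation, and Hhip is among the bivalent loci that the study tested by PCR.

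All 4 libraries came from untreated cells labelled E14, strain 129P2/OlaHsd, passage 25-30. The study's methods instead describe wild-type cells derived from blastocysts, grown on feeder cells and then on gelatin. H3K9ac was precipitated with antibody ab4441, and H3K14ac with antibody 13HH3-1A5 and with antibody 7G8, the fourth library being input DNA with no antibody step. With 1 library per antibody there is no replicate, so all intervals below are exact 95% intervals that cover counting error only, no test between conditions was possible, and a mark on fewer cells cannot be told apart from less of it per cell. After repeated positions were reduced to 1 tag each, the libraries held between 19313142 and 23837354 tags. The cells' identity was checked on marker genes: 7 of 8 ES cell genes were at least 2-fold over input for H3K9ac, where 56.7% of all TSSs were, with a median log2 ratio of 2.80 and Esrrb as the exception at 0.01. Among 6 genes of feeder fibroblasts 1 reached that level, Col1a1 at 1.01, and their median was 0.85. With the libraries scaled by their tags outside peaks instead of by all tags the counts were 7 of 8 and 4 of 6, against 67.2% of all TSSs.

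The start sites are shown first by their sequence, because these promoters differ widely in CpG content. The bases below are those immediately upstream of the RefSeq start, 250 in each case, from the GRCm38.p6 annotation and placed on mm9 by an exact and unique match. They run 5′ to 3′ on the gene's strand, with each CG dinucleotide in capitals. Hhip lies at chr8:82581908-82582157, Gli2 at chr1:120950197-120950446, Ptch1 at chr13:63667044-63667293 and Dhh at chr15:98728972-98729221, all on the minus strand, and no base of them falls in an annotated exon of the gene.
Hhip: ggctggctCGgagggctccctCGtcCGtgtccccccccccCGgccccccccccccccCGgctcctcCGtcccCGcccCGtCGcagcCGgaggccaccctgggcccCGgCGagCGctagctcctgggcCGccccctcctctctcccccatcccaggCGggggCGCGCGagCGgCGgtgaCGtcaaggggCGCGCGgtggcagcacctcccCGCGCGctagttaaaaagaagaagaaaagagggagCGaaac
Gli2: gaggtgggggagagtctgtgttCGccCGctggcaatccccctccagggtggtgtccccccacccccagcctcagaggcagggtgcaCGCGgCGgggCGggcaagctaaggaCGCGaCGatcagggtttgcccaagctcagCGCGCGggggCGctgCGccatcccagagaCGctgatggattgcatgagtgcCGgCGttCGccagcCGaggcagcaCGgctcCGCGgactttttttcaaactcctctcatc
Ptch1: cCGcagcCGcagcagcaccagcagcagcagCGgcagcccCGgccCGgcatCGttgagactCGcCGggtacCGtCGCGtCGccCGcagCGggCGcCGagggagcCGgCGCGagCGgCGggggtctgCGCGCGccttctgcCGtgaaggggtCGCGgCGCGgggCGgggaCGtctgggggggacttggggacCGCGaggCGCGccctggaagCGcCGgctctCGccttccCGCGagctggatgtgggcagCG
Dhh: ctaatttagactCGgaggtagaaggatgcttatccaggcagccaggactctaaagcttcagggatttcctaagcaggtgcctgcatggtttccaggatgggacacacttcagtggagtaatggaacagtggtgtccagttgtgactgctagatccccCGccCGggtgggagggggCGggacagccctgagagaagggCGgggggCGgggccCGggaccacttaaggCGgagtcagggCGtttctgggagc
Ptch1 is the densest of these with 41 CpGs in 250 bases, followed by Hhip with 28, Gli2 with 22 and Dhh with 9.

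Over the full RefSeq windows of 300 bases, which add the 50 bases after the start, 7 of the 9 genes had an entry, Shh and Gli1 being without one. Ptch1 held 47 CpGs, more than 98.6% of the 32851 promoter windows of the table, and Gli3 held 39, more than 95.6% of them. Hhip and Ihh had 30 CpGs each, Gli2 28, Smo 17 and Dhh 12, against a median of 7 over all windows. The GC content of the 7 windows ran from 61.7% at Dhh to 76.3% at Ptch1, and all lay above the median of 52.7%. The 9-base GLI motif GACCACCCA, searched for on both strands, was in none of the 7 windows and in 0.253% of all windows. It was the only motif searched for, and its absence says only that these letters do not occur there.

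For the comparison of antibodies, tags were counted in the 4000 bases centred on the most upstream start of a protein-coding transcript. At these starts the 3 Gli genes had the highest ratios of H3K9ac over input, the ligands the lowest, and the inhibitor, receptor and transducer lay between them. Of adjacent genes in this H3K9ac order, only Ihh and Shh differed beyond counting error, so the edges of these groups were not resolved. H3K14ac ratios were lower at most genes and in another order, with Ihh close to Gli2 at the top for antibody 13HH3-1A5. At Shh no antibody could be told from input. Scaling the libraries by their tags outside peaks, in place of all tags, raised every log2 ratio over input by 0.50 for H3K9ac, 0.22 with 13HH3-1A5 and 0.09 with 7G8, and so left the order within a library as it was.

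**Figure D1:**
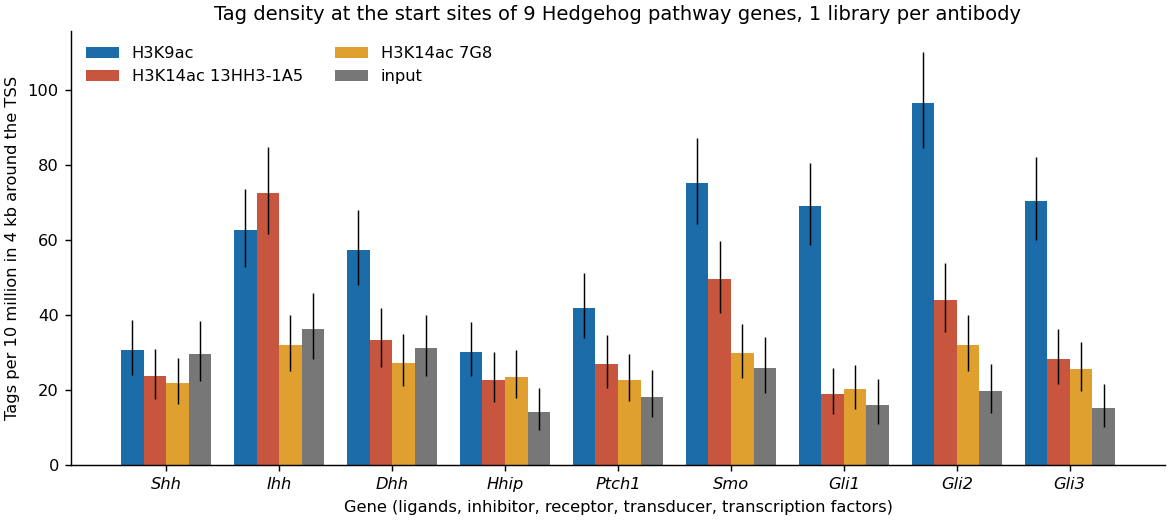
Tags per 10000000 tags of the library within 2 kb of the TSS (vertical axis) for each gene (horizontal axis) in the H3K9ac, H3K14ac 13HH3-1A5, H3K14ac 7G8 and input libraries; bars are 1 library each and lines are exact 95% Poisson intervals. Gli2 has the highest H3K9ac level, 96.6, and Ihh is the gene whose 13HH3-1A5 level, 72.6, is not below its H3K9ac level, 62.5.

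The ligands come first. Shh (chr5, TSS at 28793641), the ligand of neural tube and limb patterning, had 71 tags for H3K9ac, 51 with 13HH3-1A5, 52 with 7G8 and 57 in the input. Scaled to 10000000 tags of a library, these are levels of 30.6, 23.6, 21.8 and 29.5, with intervals that all overlap. The log2 ratio over input was 0.05 for H3K9ac (-0.47 to 0.58), -0.32 with 13HH3-1A5 (-0.90 to 0.25) and -0.44 with 7G8 (-1.01 to 0.13), and each interval holds 0. The H3K9ac ratio became 0.56 (0.03 to 1.09) with the scaling outside peaks, so this call depends on the scaling. Shh stood at the 24.4th percentile of all TSSs for H3K9ac, the 15.6th with 13HH3-1A5 and the 10.6th with 7G8. It shares its start region with 2 annotated lincRNAs, 9530036O11Rik, with a start 117 bp away, and Gm17493, with a start 727 bp away, so that tags there cannot be assigned to one of these genes.

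Ihh (chr1, TSS at 74998246), the ligand of cartilage and gut, had 145 tags for H3K9ac, 157 with 13HH3-1A5, 76 with 7G8 and 70 in the input. The libraries of the 2 antibodies against H3K14ac thus parted at this gene. On the log2 scale over input, 13HH3-1A5 reached 1.00 (0.59 to 1.43), a 2-fold level at the 83.8th percentile, whereas 7G8 lay at -0.18 (-0.67 to 0.30), the 19.9th percentile. The ratio of 13HH3-1A5 to 7G8 was 1.19 (0.78 to 1.60), higher than at 99.4% of all TSSs. H3K9ac at Ihh was 0.79 (0.37 to 1.22) over input, and Ihh was the one gene of the 9 whose log2 ratio of 13HH3-1A5 to H3K9ac had a value above 0, 0.21 (-0.12 to 0.55). That ratio turned to -0.03 with 1 kb on each side of the TSS and to -0.07 when libraries were scaled by tags outside peaks, so its sign depended on these choices.

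Dhh (chr15, TSS at 98728971), the ligand of testis and peripheral nerve, had 133 tags for H3K9ac, 72 with 13HH3-1A5, 65 with 7G8 and 60 in the input. Within 2 kb of the TSS it was raised for H3K9ac alone, with a log2 ratio of 0.88 (0.43 to 1.35). The ratio was 0.10 (-0.41 to 0.62) with 13HH3-1A5 and -0.19 (-0.72 to 0.34) with 7G8, both with intervals across 0. The input itself was high at the ligands, with 57 to 70 tags in the window against 27 to 50 at the other 6 genes, and the part of the input in their low ratios was not tested.

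Hhip (chr8, TSS at 82581905), which binds Hedgehog ligands at the cell surface and withholds them from Ptch1, had 70 tags for H3K9ac, 49 with 13HH3-1A5, 56 with 7G8 and 27 in the input. Its scaled levels were the lowest of the 9 genes in H3K9ac and in input, at 30.2 and 13.98. Their intervals overlapped those of Shh in H3K9ac, at 30.6, and of Gli3 in input, at 15.0. Relative to input Hhip was in the middle range: 1.11 (0.45 to 1.81) for H3K9ac, the 46.0th percentile of all TSSs. For H3K14ac the log2 ratio was 0.70 (-0.01 to 1.43) with 13HH3-1A5 and 0.75 (0.06 to 1.47) with 7G8, and the ratio of 13HH3-1A5 to 7G8 was -0.05 (-0.64 to 0.53). The value with 13HH3-1A5 became 0.91 (0.21 to 1.65) with the scaling outside peaks, so whether its interval holds 0 depends on the scaling.

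The study probed Hhip by PCR, and the primers locate what it measured within this window. It reported both marks at bivalent loci tested in this way. At Hhip it reported a rise of both under sodium butyrate, an inhibitor of histone deacetylases. The amplicon spans chr8:82581138-82581284 on mm9, 147 bases that lie 621 to 767 bp downstream of the TSS and entirely in coding sequence of the opening exon. It is shown here on the plus strand, 5′ to 3′, opposite to the gene, with the primer sites in capitals.
Hhip amplicon: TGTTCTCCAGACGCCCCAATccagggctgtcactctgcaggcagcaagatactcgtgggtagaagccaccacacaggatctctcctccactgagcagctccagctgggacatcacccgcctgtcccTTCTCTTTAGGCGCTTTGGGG
The amplicon lay within an H3K9ac peak at chr8:82581001-82581950, and no peak of either H3K14ac antibody overlapped it. These calls depend on the settings. With input scaled by tags outside peaks both H3K14ac libraries had a peak within 2 kb of the TSS, and whether it covers the amplicon was not examined. The H3K9ac peak was lost at the stricter threshold of 1e-10. In the 1000 bp around it, there were 41 tags for H3K9ac, 22 with 13HH3-1A5, 28 with 7G8 and 11 in the input. H3K9ac was 1.63 (0.65 to 2.74) over input on the log2 scale, while the intervals of 13HH3-1A5 at 0.84 (-0.27 to 2.03) and 7G8 at 1.04 (-0.01 to 2.20) held 0. With the scaling outside peaks that of 7G8 no longer did, at 1.14 (0.09 to 2.29), and that of 13HH3-1A5 still did, at 1.05 (-0.05 to 2.24).

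Ptch1 (chr13, TSS at 63674474), the receptor and itself a target of the pathway, had 97 tags for H3K9ac, 58 with 13HH3-1A5, 54 with 7G8 and 35 in the input at its most upstream start. The log2 ratio of H3K9ac over input there was 1.21 (0.64 to 1.81), and those of 13HH3-1A5 and 7G8 were 0.57 (-0.06 to 1.21) and 0.32 (-0.32 to 0.98). With the scaling outside peaks 13HH3-1A5 reached 0.78 (0.15 to 1.43), again with an interval that no longer holds 0. This start is not the one in RefSeq, which lies 7431 bp downstream and whose promoter is the CpG-dense sequence shown above. At the annotated start 7646 bp downstream, that of the longest coding sequence, the tags were 203 for H3K9ac, 87 with 13HH3-1A5, 70 with 7G8 and 34 in the input. H3K9ac was 2.31 (1.79 to 2.88) over input there, 13HH3-1A5 1.19 (0.61 to 1.81) and 7G8 0.74 (0.13 to 1.37). H3K9ac was higher at the internal start than at the outer one by 1.11 (0.29 to 1.92), while the differences of 0.63 (-0.27 to 1.52) with 13HH3-1A5 and 0.42 (-0.50 to 1.33) with 7G8 were within counting error. The start 8840 bp downstream, whose window overlaps the former, had 227 tags of H3K9ac and ratios of 2.66 (2.10 to 3.26) for H3K9ac, 1.45 (0.85 to 2.10) with 13HH3-1A5 and 0.92 (0.28 to 1.59) with 7G8. The last annotated start, 58849 bp downstream, had a ratio of -0.15 (-0.74 to 0.45) for H3K9ac.

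Smo (chr6, TSS at 29685694), the membrane protein that carries the signal inward, had 174 tags for H3K9ac, 107 with 13HH3-1A5, 71 with 7G8 and 50 in the input. Its log2 ratio over input was 1.54 (1.07 to 2.02) for H3K9ac and 0.93 (0.44 to 1.45) with 13HH3-1A5. With 7G8 it was 0.20 (-0.34 to 0.75). As at Ihh, the H3K14ac libraries differed: 13HH3-1A5 was 0.73 (0.29 to 1.19) over 7G8, higher than at 95.1% of TSSs.

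At the most upstream starts, the transcription factors had the highest H3K9ac ratios of the 9 genes, while the internal starts of Ptch1 had 2.31 and 2.66. Gli2 (chr1, TSS at 120950196) had 224 tags for H3K9ac, 95 with 13HH3-1A5, 76 with 7G8 and 38 in the input. The input scaled level of 19.7 stood against 96.6 in the H3K9ac library, a log2 ratio of 2.30 (1.80 to 2.83) at the 77.9th percentile. It was also the highest of the 9 with 13HH3-1A5, at 1.16 (0.60 to 1.74), and had a ratio of 0.70 (0.12 to 1.30) with 7G8. Gli2 was in this way raised in all 3 ChIP libraries.

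Gli3 (chr13, TSS at 15555068) followed closely, with 163 tags for H3K9ac, 61 for each H3K14ac antibody and 29 in the input. The log2 ratios over input were 2.23 (1.65 to 2.85) for H3K9ac, 0.91 (0.25 to 1.60) with 13HH3-1A5 and 0.77 (0.11 to 1.46) with 7G8, and none of these intervals reached 0.

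Gli1 (chr10, TSS at 126778645), an activator whose transcription is a common readout of Hedgehog activity, had 160 tags for H3K9ac but 41 with 13HH3-1A5, 48 with 7G8 and 31 in the input. Its H3K9ac ratio of 2.10 (1.54 to 2.71) was close to those of the other Gli genes. The H3K14ac ratios were 0.24 (-0.47 to 0.96) with 13HH3-1A5 and 0.33 (-0.35 to 1.03) with 7G8, both across 0. Of the 9 genes Gli1 had the lowest ratio of 13HH3-1A5 to H3K9ac, -1.86 (-2.40 to -1.36), which is still above that of 13.6% of all TSSs.

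**Figure D2:**
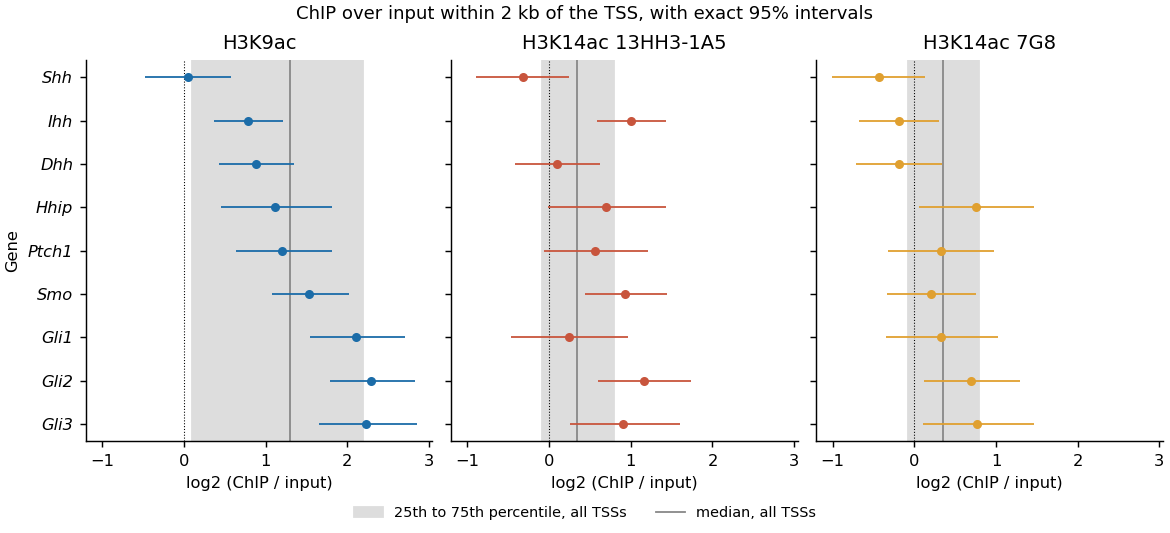
log2 ratio of ChIP over input within 2 kb of the TSS (horizontal axis) for the 9 genes (vertical axis), 1 panel per antibody; points are ratios, lines exact 95% intervals, the grey band the 25th to 75th percentile of all TSSs and the grey line their median. For H3K9ac, Gli2 and Gli3 lie above the band, at 2.30 and 2.23, and Shh below it, at 0.05.

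Neighbours in this order could rarely be told apart. For H3K9ac, of the 8 pairs of adjacent genes 1 had an interval of the difference that left out 0, Ihh over Shh, by 0.73 (0.05 to 1.42) on the log2 scale. The ends of the order differed by 2.24 (1.49 to 2.99), Gli2 over Shh. For the H3K14ac antibodies no adjacent pair differed beyond counting error, while the ends did: Gli2 over Shh by 1.48 (0.66 to 2.30) with 13HH3-1A5, and Gli3 over Shh by 1.21 (0.31 to 2.11) with 7G8. These intervals make no allowance for the ends being picked from each library's own order.

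Counted over the 9 genes, H3K9ac was at least 2-fold over input at 6, namely Hhip, Ptch1, Smo and the 3 Gli genes, where 56.7% of all TSSs were. Ihh and Dhh joined them, making 8, with 1 kb on each side, where 62.9% of all TSSs were at 2-fold, or with the scaling outside peaks, where 67.2% were. For 13HH3-1A5 the count was 2, Ihh and Gli2, against 16.3% of all TSSs, and with 7G8 it was 0, against 16.9%. The lower bound of the interval was above 0 at 8 genes for H3K9ac (65.2% of all TSSs), at 4 with 13HH3-1A5 (33.0%) and at 3 with 7G8 (32.5%). With the scaling outside peaks the members so called were 9 for H3K9ac, as Shh joined (72.9% of all TSSs), 6 with 13HH3-1A5, as Hhip and Ptch1 joined (45.2%), and 3 with 7G8 (37.7%). The medians over the 9 genes were 1.21 for H3K9ac against 1.30 over all TSSs, 0.70 with 13HH3-1A5 against 0.35, and 0.32 with 7G8 against 0.35. The count with 13HH3-1A5 depended on the width of the window, since Hhip, Smo and Gli3 joined with 1 kb on each side, making 5, against 27.2% of all TSSs. All ratios over input share the same input library.

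H3K14ac by 13HH3-1A5 was at least 2-fold below H3K9ac at the 3 Gli genes and at none of the other 6, where 47.3% of all TSSs were so. Dhh joined them with 1 kb on each side, at -1.13, and with the scaling outside peaks, at -1.07, where 52.4% and 57.0% of all TSSs were so. Besides Gli1, the ratio was -1.32 (-1.77 to -0.88) at Gli3 and -1.14 (-1.50 to -0.78) at Gli2. With the interval below 0 the count was 6, since Dhh, Ptch1 and Smo joined, against 62.2% of TSSs. A ratio of 2 antibodies compares libraries that differ in how strongly each enriches, and the median over all TSSs was -0.92. Relative to that median, Ihh, Shh, Hhip, Smo, Ptch1 and Dhh lay above it and the 3 Gli genes below it. Only the intervals of Ihh and Gli1 left the median out, so the other genes could not be told from it.

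**Figure D3:**
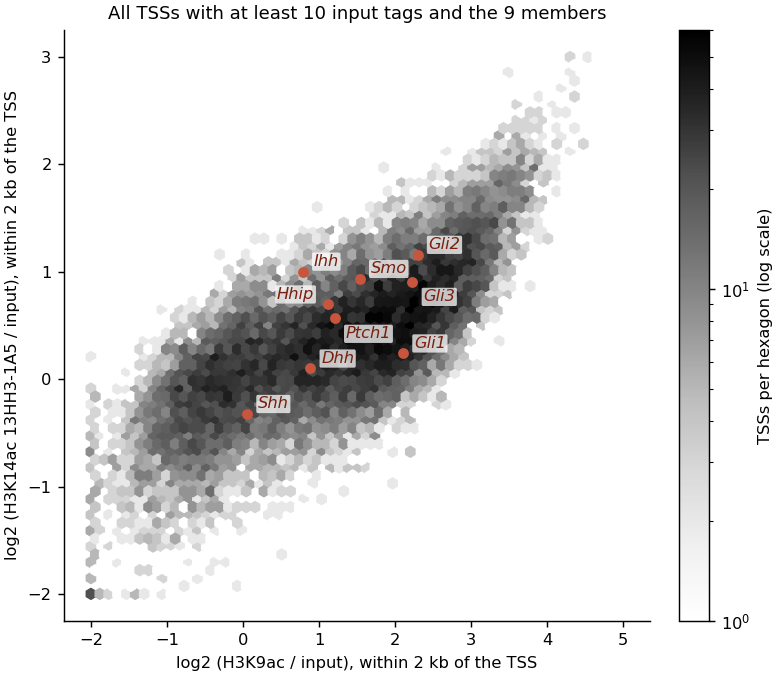
log2 ratio over input of H3K9ac (horizontal axis) and of H3K14ac 13HH3-1A5 (vertical axis) within 2 kb of the TSS; grey hexagons show how many of 21220 TSSs with at least 10 input tags fall there, on a log scale and with extreme values drawn at the edges, and red points are the 9 genes. Both axes share the input library; Ihh has an H3K9ac ratio of 0.79 and a 13HH3-1A5 ratio of 1.00, whereas Gli1 has 2.10 and 0.24.

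Between the antibodies against H3K14ac, 13HH3-1A5 exceeded 7G8 beyond counting error at 3 genes, Ihh, Smo and Gli2, the last by 0.46 (0.01 to 0.92), where 10.9% of TSSs did so. The reverse was seen at 0 of the 9 genes and at 8.45% of all TSSs. At Hhip, Shh, Dhh, Ptch1, Gli1 and Gli3 the difference could not be told from 0, with log2 ratios from -0.09 at Gli1 to 0.29 at Dhh.

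In 500 bp bins, the tags showed where around each start the mark lay. The width of the stretch around the highest bin within 2 kb of the TSS in which every bin was at least 2-fold over scaled input, after adding 1 tag to each, was 5000 bp for H3K9ac at Gli2, from 2000 bp upstream to 3000 bp downstream. Gli1 and Gli3 followed with 3000 bp each, Gli1 from the TSS onwards and Gli3 from 1000 bp upstream to 2000 bp downstream. Smo had 2500 bp, Ptch1 1500 bp, Hhip and Ihh 1000 bp each and Dhh 500 bp. At Shh the stretch of 1000 bp lay inside the gene, from 1500 to 2500 bp downstream. A stretch leaves out bins at 2-fold that are not joined to the highest bin. Of the 40 bins over 10 kb on either side, those at 2-fold for H3K9ac were 27 at Gli1, 21 at Gli2 and 17 at Ptch1. They were 13 at Dhh, 12 at Gli3, 10 at Smo, 7 at Hhip, 6 at Shh and 4 at Ihh.

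H3K14ac by 13HH3-1A5 was widest at Ihh and Smo, 2000 bp each and in both genes from 500 bp upstream to 1500 bp downstream. At Ihh the bin from 1000 to 1500 bp held 40 tags of 13HH3-1A5, against 18 of H3K9ac, 21 of 7G8 and 9 of input. The 13HH3-1A5 stretch at Gli2 and Ptch1 was 1000 bp, at Hhip, Dhh, Gli1 and Gli3 500 bp, and at Shh no bin within 2 kb reached 2-fold. For 7G8 the stretch was 1000 bp at Gli2, 500 bp at Hhip, Ptch1, Gli1, Gli3 and Smo, and absent at the 3 ligands. These widths rest on few tags per bin, and with a 4-fold limit 20 of the 27 widths moved by over 1.5 times. With 3 tags added in place of 1, 6 of the 27 did: 13HH3-1A5 fell to 1000 bp at Smo and to 500 bp at Ptch1, 7G8 to 500 bp at Gli2, and no stretch was left for H3K9ac at Shh, with 13HH3-1A5 at Gli1 or with 7G8 at Smo. Ihh alone was then widest with 13HH3-1A5, at 1500 bp. The 10 kb on either side of the Dhh and Gli1 starts also hold part of Lmbr1l and of Inhbe, respectively.

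**Figure D4:**
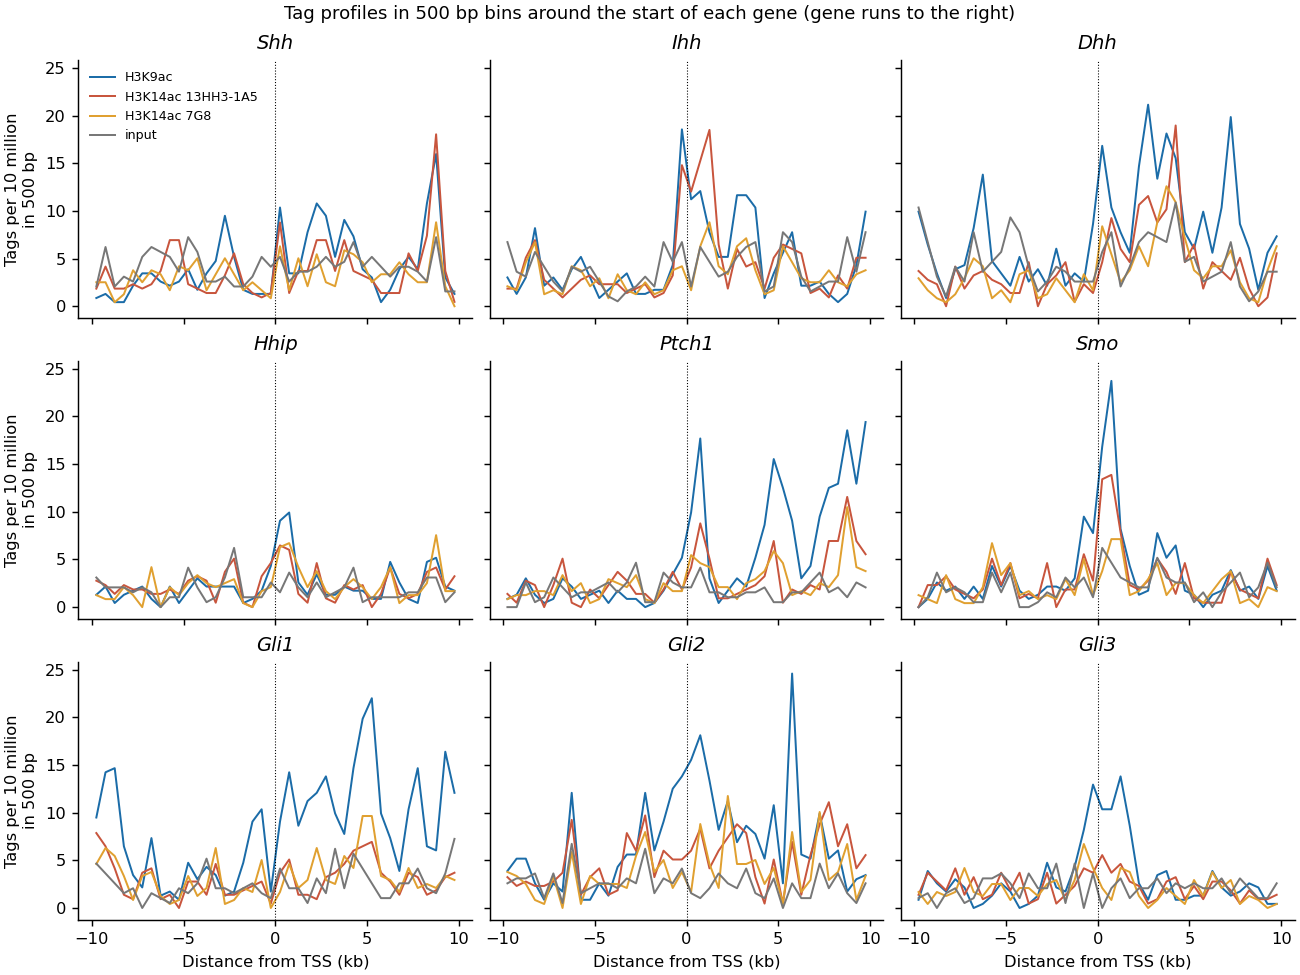
Tags per 10000000 tags of the library in 500 bp bins (vertical axis) against distance from the TSS in kb (horizontal axis) for the 9 genes, 1 line per library, with transcription to the right. H3K9ac stands over a wide stretch at Gli1 and Gli2, in narrower summits at Hhip and the outer start of Ptch1, and 13HH3-1A5 is as high as H3K9ac around the start of Ihh and in the bin 8.5 kb inside Shh.

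A peak caller with a Poisson threshold of 1e-05 per 400 bp window found an H3K9ac peak within 2 kb of the TSS at 8 of the 9 genes, all but Shh, where 65.3% of all TSSs had one. A 13HH3-1A5 peak was found at Ihh and Smo, 2 of 9 against 28.7% of all TSSs, and a 7G8 peak at Gli2 and Gli3, 2 of 9 against 25.2%. These calls follow the ratio between the H3K14ac libraries at Ihh and Smo but not at Gli2 or Gli3. At Gli2 13HH3-1A5 was above 7G8, by a log2 ratio of 0.46 (0.01 to 0.92). At Gli3 that ratio, 0.14 (-0.40 to 0.68), could not be told from 0. Peaks of both H3K14ac libraries were at 0 of the 9 genes and at 15.2% of all TSSs, and with input scaled by tags outside peaks at 2 of the 9, Hhip and Gli2, against 18.1% of all TSSs. At a threshold of 1e-10 the H3K9ac peaks of Hhip and Dhh were lost, leaving 6 of 9 against 56.3% of all TSSs. With that scaling of the input Shh gained a peak for H3K9ac, making 9 of 9 against 68.4%, and the counts were 5 with 13HH3-1A5 against 34.2% and 3 with 7G8 against 28.0%.

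Gene bodies, from 2 kb downstream of the TSS to the end of the gene, told the libraries apart further. Over the 9 genes there were 35 peaks for H3K9ac, 59 with 13HH3-1A5 and 14 with 7G8. Their densities of 0.512, 0.863 and 0.205 per 10 kb compare with 0.366, 0.274 and 0.1001 over the bodies of all 9711 genes longer than 20 kb, which 4 of the 9 are not, and 44 of the 59 peaks with 13HH3-1A5 lay in Gli2 and Gli3. At the threshold of 1e-10 there were 14, 7 and 2, so that H3K9ac then had more body peaks than 13HH3-1A5. The share kept with 13HH3-1A5, 11.9%, compares with 13.8% of all peaks of that library. The counts by gene below are those at the threshold of 1e-05.

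Gli2, with a body of 217 kb, held 30 peaks of 13HH3-1A5, 9 of H3K9ac and 6 of 7G8. Of the 30, 29 were centred in introns, 6 overlapped an H3K9ac peak and 2 a 7G8 peak, and 6 of the 9 H3K9ac peaks overlapped 13HH3-1A5. Of all 24154 peaks with 13HH3-1A5 in bodies of genes over 20 kb, 37.8% overlapped an H3K9ac peak and 15.5% a 7G8 peak. The density of the 30 peaks in Gli2, 1.38 per 10 kb, was higher than at 96.7% of the 9711 genes over 20 kb long. The whole body carried 5320 tags of 13HH3-1A5, 3450 of H3K9ac, 3685 of 7G8 and 2950 of input, a log2 ratio over input of 0.69 (0.62 to 0.75) with 13HH3-1A5, higher than at 95.04% of those genes. The ratios were -0.04 (-0.11 to 0.03) for H3K9ac and 0.02 (-0.05 to 0.09) with 7G8, so that of the 3 antibodies 13HH3-1A5 alone had an interval above 0 across this gene. With the scaling outside peaks the values were 0.90 with 13HH3-1A5, 0.47 for H3K9ac and 0.11 with 7G8, all above 0 and in an order that 13HH3-1A5 still led. At an internal start 71031 bp downstream, scaled by all tags, 13HH3-1A5 had 1.34 (0.92 to 1.77), 7G8 0.74 (0.30 to 1.19) and H3K9ac 0.62 (0.17 to 1.08). The body peak of Gli2 with the most H3K9ac was in an intron 5396 bp downstream (chr1:120943901-120945700), with 96 tags of H3K9ac, 27 of 13HH3-1A5, 30 of 7G8 and 11 of input.

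Gli3 also had more 13HH3-1A5 peaks than others in its body, with 14 of 13HH3-1A5, 1 of H3K9ac and 3 of 7G8 in 265 kb. The density with 13HH3-1A5, 0.529 per 10 kb, was higher than at 80.8% of long genes. Its log2 ratios over the body were 0.30 (0.23 to 0.38) with 13HH3-1A5, 0.19 (0.11 to 0.27) with 7G8 and -0.40 (-0.49 to -0.32) for H3K9ac, the last turning to 0.10 (0.01 to 0.19) with the scaling outside peaks. A single site in an intron, 244507 bp downstream (chr13:15799251-15799900), was a peak in all 3 libraries, with 25 tags of H3K9ac, 30 of 13HH3-1A5, 26 of 7G8 and 3 of input.

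Ptch1 had more peaks of H3K9ac than of 13HH3-1A5, with 13 peaks of H3K9ac, 6 of 13HH3-1A5 and 4 of 7G8 in 62.2 kb. Their densities were higher than at 94.0%, 92.2% and 96.6% of long genes, in that order. The median density of long genes was also higher for H3K9ac, 0.301 per 10 kb against 0.104 with 13HH3-1A5. H3K9ac over its body was 1.16 (1.01 to 1.30) above input on the log2 scale, higher than at 92.9% of long genes, and 13HH3-1A5 was 0.65 (0.49 to 0.81), higher than at 94.0%. The peak with the most H3K9ac lay at chr13:63664101-63667400, across the RefSeq start and the annotated starts 7646 and 8840 bp downstream, with 211 tags of H3K9ac, 88 of 13HH3-1A5, 63 of 7G8 and 24 of input. This peak covers annotated starts and counts as a body peak because bodies were measured from the outermost start.

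Hhip and Smo had 1 H3K9ac peak each in the body and no 7G8 peak. Over the whole body of Hhip the log2 ratio over input was nevertheless highest with 7G8, 0.32 (0.18 to 0.47), higher than at 86.8% of long genes. It was 0.20 (0.05 to 0.35) with 13HH3-1A5 and -0.12 (-0.28 to 0.03) for H3K9ac. With the scaling outside peaks these were 0.42, 0.41 and 0.38. The H3K9ac peak of Hhip, in an intron 22355 bp downstream (chr8:82559251-82559850), had 21 tags of H3K9ac, 35 of 13HH3-1A5, 16 of 7G8 and 7 of input. At this site 13HH3-1A5 led, with 2.16 (0.97 to 3.57) over input. Hhip had 3 peaks of 13HH3-1A5 in its 89.9 kb, a density at the 68.1st percentile of long genes. In Smo the 4 peaks of 13HH3-1A5 lay 16.6 to 23.9 kb downstream, a density higher than at 98.3% of long genes, but in a body of 23.7 kb. The ratio over this body with 13HH3-1A5 was 0.21 (-0.02 to 0.44), higher than at 66.7% of long genes. It was 0.08 (-0.15 to 0.31) for H3K9ac and -0.33 (-0.57 to -0.08) with 7G8. With the scaling outside peaks these were 0.43 (0.20 to 0.66), 0.58 (0.35 to 0.81) and -0.24 (-0.48 to 0.01). The H3K9ac peak of Smo at chr6:29708301-29709250 had 66 tags of H3K9ac, 31 of 13HH3-1A5, 27 of 7G8 and 10 of input.

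**Figure D5:**
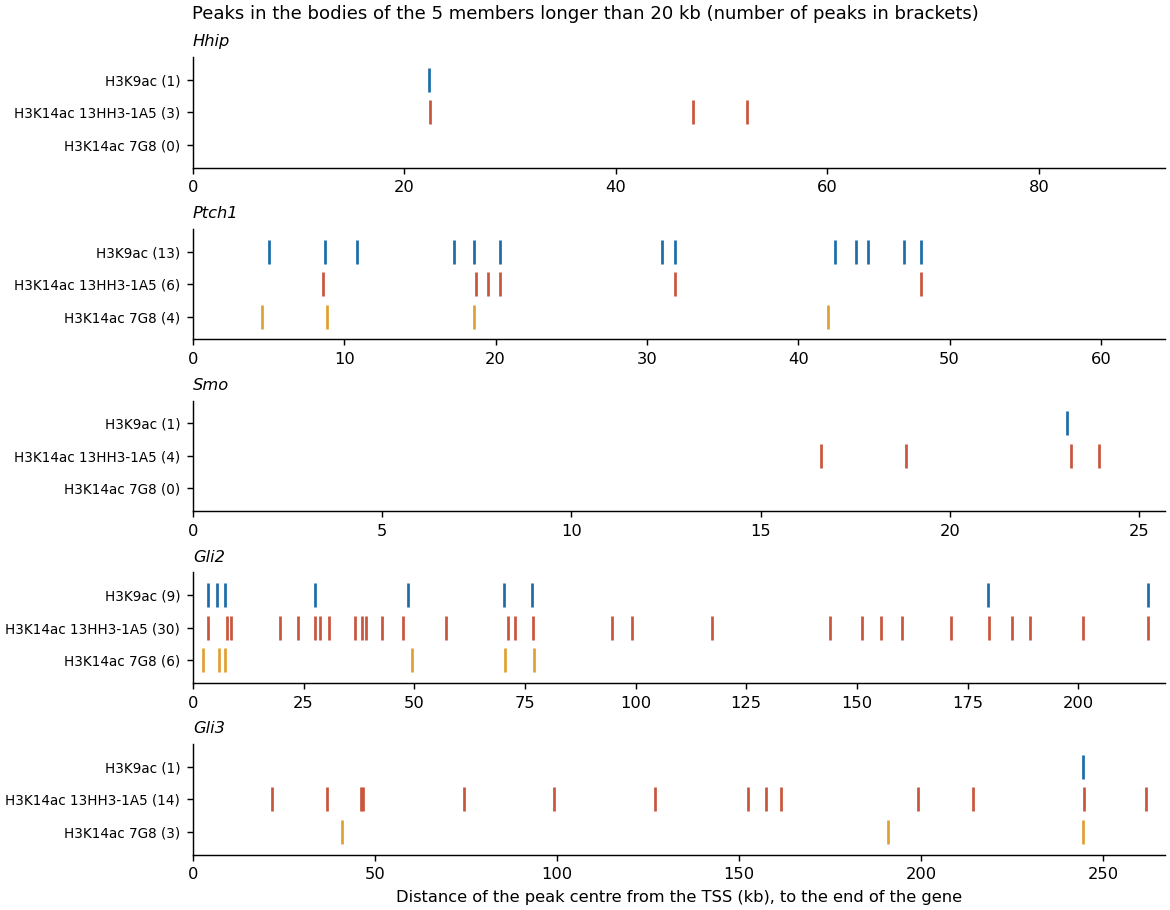
Position of each peak centre in kb from the TSS (horizontal axis) in the bodies of Hhip, Ptch1, Smo, Gli2 and Gli3, with 1 row of ticks per antibody and the number of peaks in brackets. At the threshold of 1e-05 drawn here, Gli2 and Gli3 have more 13HH3-1A5 ticks than H3K9ac ticks, 30 against 9 and 14 against 1. Ptch1 has more H3K9ac ticks, 13 against 6. At 1e-10 the bodies of all 9 genes together had 7 peaks of 13HH3-1A5 against 14 of H3K9ac.

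In the shorter genes, the body of Gli1 had the highest H3K9ac ratio, a log2 value of 1.58 (1.30 to 1.87) over input, with 5 H3K9ac peaks in 9.70 kb. 13HH3-1A5 had no peak there and a ratio of -0.05 (-0.40 to 0.31), or 0.17 (-0.18 to 0.52) with the scaling outside peaks, so that it could not be told from input in the body either, and 7G8 had 1 peak there. Dhh had 3 H3K9ac peaks and a body ratio of 0.97 (0.62 to 1.34). In its shorter body these make 8.55 peaks per 10 kb, more than the 5.15 of Gli1. With 13HH3-1A5 the body of Dhh had 1 peak and a ratio of 0.53 (0.16 to 0.92). With 7G8 it had no peak and 0.14 (-0.26 to 0.54). Ihh had 1 H3K9ac peak, 3021 bp downstream, where 13HH3-1A5 had 16 tags against 16 of input. Shh, with no peak at its start, had a peak of both H3K9ac and 13HH3-1A5 in a coding exon 8716 bp downstream (chr5:28784551-28785300), where the counts were 49 for H3K9ac, 50 with 13HH3-1A5, 24 with 7G8 and 17 for input. Another start of the lincRNA 9530036O11Rik is annotated 8827 bp downstream of the Shh start, inside this peak. The tags of the peak therefore cannot be assigned to one of these genes.

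Other genes of the pathway, listed by role, were counted in the same windows. Of 23 listed genes 22 were found, and Disp1 was not analysed here. At least 2-fold over input were 19 of the 22 for H3K9ac, 7 with 13HH3-1A5 and 1 with 7G8, with medians of 1.60, 0.60 and 0.18 on the log2 scale. These compare with 56.7%, 16.3% and 16.9% of all TSSs.

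For production and release of ligand, 2 of 3 genes reached 2-fold for H3K9ac, a level that 56.7% of all TSSs reached. Hhat, which attaches palmitate to the ligands, had 1.06 (0.54 to 1.60). Disp2, a relative of the transporter that releases them, tied with it at 1.06 (0.38 to 1.77). Both intervals reach below 2-fold. Scube2, a secreted release factor, was lowest at 0.64. On the receptor side all 5 genes reached it, and the endocytic receptor Lrp2 was highest at 2.31 (1.80 to 2.85). Of 7 intracellular regulators 5 did. Gsk3b, a kinase that phosphorylates Gli proteins, was highest at 3.32 (2.75 to 3.94), and Gpr161, a ciliary receptor that restrains the pathway, was lowest at -0.18 (-0.76 to 0.39), or 0.32 with the scaling outside peaks.

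All 7 target genes reached 2-fold for H3K9ac, 4 of them with 13HH3-1A5 and 0 with 7G8, where 56.7%, 16.3% and 16.9% of all TSSs did. With 13HH3-1A5 the other roles had 0 of 3 for production and release, 2 of 5 on the receptor side and 1 of 7 intracellular regulators, against 16.3% of all TSSs. For H3K9ac the targets ran from Ccnd1, a cyclin, at 2.75 (2.24 to 3.29) to Olig2, a transcription factor of motor neuron progenitors, at 1.01 (0.56 to 1.48). Neither of these ends was at 2-fold with 7G8, which had 0.66 at Ccnd1 and -0.25 at Olig2.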

How the data were processed

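The 4 libraries were deposited as lists of mapped tags of 36 bases on mm9, and the score that the authors gave each line was 1 throughout, so each line was counted as 1 tag. The study's methods name ELAND with 1 mismatch allowed as the aligner. The H3K9ac, 7G8 and input lists held at most 1 tag per position and strand. The 13HH3-1A5 list held 738619 repeated tags, 3.30% of 22365676, which were reduced to 1 each.

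Tag 5′ ends were shifted 100 bp towards the fragment middle. On chromosomes 1 to 19, X and Y, tags were counted in the 4000 bases around the TSS, in bins of 500 bp and in gene bodies, and levels are per 10000000 tags of the library. Ratios were scaled by library totals, with exact conditional binomial (Clopper-Pearson) 95% intervals, and differences between genes with exact intervals of the odds ratio. Percentiles of ratios over input at the TSS are over TSSs with at least 1 input tag. Those of ratios between 2 antibodies are over TSSs with at least 1 tag in either library. Percentiles of bodies are over genes longer than 20 kb. Peaks were windows of 400 bp in steps of 50 bp above the larger of the genome mean and the scaled input in 1, 5 and 10 kb, at a Poisson threshold of 1e-05, and joined where they touched. A peak at the TSS overlapped the window by at least 1 bp, and a body peak was centred in the body. Python 3.11.15, numpy 2.4.6, scipy 1.17.1 and pysam 0.24.0 were used. The ratio and peak steps were checked on simulated data. The simulated peaks stood on an even background and held more tags than most body peaks counted here, so the check did not cover weak peaks.

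The members, gene lists and tests were chosen with earlier results of these data known. Named genes are the 9 members, the highest and lowest H3K9ac ratio of each role in the pathway list, the Hhip amplicon, and the body peak with the most H3K9ac over scaled input of each member over 20 kb. 1 gene that this rule names is not reported here. The body and bin values of Shh, Ihh, Dhh and Gli1 and the peaks shared by libraries, outside this rule, were chosen after their values were seen.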

Additional observations from a re-analysis of the deposited data

How the results depend on the processing

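With 1 library per antibody no library could be left out, and no paired analysis was possible because each group holds a single library. Log2 ratios by gene stayed within their main interval in all 45 cases with all deposited tags, in all 27 without the shift of tags, in 43 of 45 with 1 kb on each side, in 42 of 45 with the scaling outside peaks and in 26 of 27 at the start of the longest coding sequence, Ptch1 being the exception there at 2.31 for H3K9ac. Members at least 2-fold for 13HH3-1A5 went from 2 (16.3% of all TSSs) to 5 with 1 kb on each side (27.2%) and to 4 with the scaling outside peaks (25.2%). They went to 1 without the shift, where the share was not computed. For 7G8 they went from 0 (16.9% of all TSSs) to 1 with 1 kb on each side (26.2%). The other pathway genes for 7G8 went from 1 of 22 to 2 with 1 kb on each side and to 2 with the scaling outside peaks, against 26.2% and 20.3% of all TSSs. Members with a 13HH3-1A5 peak went from 2 (28.7% of all TSSs) to 5 with input scaled outside peaks (34.2%) and stayed at 2 at the threshold of 1e-10 (8.72%). Those with a 7G8 peak went from 2 (25.2%) to 1 at the threshold of 1e-10 (6.05%). Members with a peak of both H3K14ac libraries went from 0 (15.2% of all TSSs) to 2 with input scaled outside peaks (18.1%). Members at least 2-fold for H3K9ac went from 6 (56.7% of all TSSs) to 8 with 1 kb on each side (62.9%) and with the scaling outside peaks (67.2%). Body peaks at that threshold fell from 35 to 14 for H3K9ac, from 59 to 7 for 13HH3-1A5 and from 14 to 2 for 7G8, which follows from the stricter threshold. The other causes were not tested. Under this scaling the marker counts, the counts of peaks of both H3K14ac libraries, the counts of intervals above 0, the amplicon and the body ratios were alternatives chosen after seeing the data. Of 27 body ratios, 5 changed sign: H3K9ac at Gli3, from -0.40 to 0.10, and, from intervals that held 0, H3K9ac at Hhip (0.38) and Gli2 (0.47) and 13HH3-1A5 at Ihh (0.14) and Gli1 (0.17). Depth limits the ratios: an input of 27 to 70 tags per window leaves log2 intervals over input 0.84 to 1.44 wide.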
